A study of Mus musculus with 15 samples.

Results

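Fibronectin (Fn1), the fibulins Fbln1, Fbln2 and Fbln5, fibrillin 1 (Fbn1), and the matricellular or pericellular proteins tenascin C (Tnc), thrombospondin 1 (Thbs1), Sparc, versican (Vcan) and periostin (Postn) were followed in PCBP1-knockdown mammary epithelial cells with and without FAM3C or LIFR. These 10 genes were taken by symbol from 2 RNA-Seq tables of 13893 genes (dataset 1) and 15023 genes (dataset 2), in which 5 and 8 of them, respectively, had values. The genes were chosen by the CPM values of Fn1 and Fbln2, which were both higher after PCBP1 knockdown, with related matrix proteins around them, so the knockdown values below describe the genes and are not tested. Fbln1 and Fbln5 were in neither table and were not analysed here.

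All samples were of NMuMG, a mouse mammary gland epithelial cell line, and each value was a CPM (reads of a gene relative to all reads of its library). Dataset 2 held 2 NMuMG control libraries, which the labels describe as having no treatment and the study as carrying a scrambled shRNA, and 2 libraries of cells with shRNA knockdown of PCBP1 (shPCBP1). In dataset 1 every line carried the PCBP1 shRNA. It held 4 shPCBP1 lines, of which CT clones 1 to 3 had received Cas9 with no gene-specific guide and the last was unaltered. Beside them stood 3 clones with FAM3C KO, 3 with LIFR KO, and 1 double KO of FAM3C and LIFR. Each KO or CT line grew from a single colony and gave 1 RNA sample, so the spread within a group is the spread between clones, and the double KO had no replicate. PCBP1 is an RNA-binding protein that represses translation of FAM3C, a secreted cytokine-like protein, and LIFR is the receptor for leukemia inhibitory factor. The dataset 1 comparisons asked which of the transcripts raised without PCBP1 depend on FAM3C or LIFR.

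Fibronectin is a large glycoprotein that cells assemble into fibrils through integrin α5β1, and it is a common marker of mesenchymal change in epithelial cells. Fibulins and fibrillins bind to one another and to fibronectin and contribute to elastic fibres and microfibrils, while matricellular proteins such as Thbs1, Sparc, Tnc and Postn sit in the matrix and modulate adhesion and growth factor signalling more than they build it. Versican is a large chondroitin sulfate proteoglycan that binds hyaluronan.

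Short stretches upstream of Fbln2, Sparc and Vcan, the members with both a promoter window and a mean above 0.5 CPM, are shown because they hold an E-box, the 6-base site CANNTG bound by basic helix-loop-helix factors such as TWIST1, which the study examined beside LIFR. They come from RefSeq promoter windows (GRCm38.p6) of 250 bases before a transcript start, which were given for 8 of the 10 genes. Each is 30 bases, 5′ to 3′ on the gene's strand, with the E-box in capitals, at chr6:91212591-91212620 (+), chr11:55420123-55420152 (-), chr11:55420081-55420110 (-) and chr13:89742674-89742703 (-), in order.
Fbln2: gcagtactgagaCATCTGagtctcaatata
Sparc, first site: aggtgattccagCAGCTGttccagccctga
Sparc, second site: tttaggcaggagccccagaaCAGATGagac
Vcan: tgggtgggaaggCAGTTGtttgagactgca

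The sites began 161 bases before the start of Fbln2, 60 and 10 bases before that of Sparc, and 179 bases before that of Vcan. CANNTG reads the same on both strands and was in 66.2% of all 32851 windows, so a match is common. Tnc, which was near the limit of detection, and Fbln1 and Fbln5 also had a match and are not shown. The form CATCTG, read as CAGATG on the other strand, was present for Fbln2 and Sparc and in 14.4% of windows. Neither the STAT site TTCNNNGAA (7.0% of windows) nor the AP-1 site TGANTCA (6.7% of windows), both searched on both strands, occurred in any window of the 8 genes. The windows of Fbln2 and Sparc overlapped exons of longer GENCODE M21 transcripts, by 250 and 238 bases, and that of Vcan overlapped none.

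The libraries were those of an epithelial line, and some stood apart. Of 12 epithelial marker genes, 8 were in each table, and they summed to 1260 to 3239 CPM in dataset 1 and 2801 to 3045 CPM in dataset 2. The fibroblast markers present, 4 of 10 and 3 of 10, summed to at most 5.53 and 0.896 CPM. Pcbp1 was at 287 and 312 CPM in the dataset 2 controls and at 14.1 and 14.2 CPM with the shRNA. Fam3c was at 26.4 to 42.9 CPM in FAM3C KO and 47.0 to 59.4 CPM in shPCBP1, and the Lifr transcript was at 34.9, 29.3 and 14.6 CPM in clones 1 to 3 of LIFR KO against 25.8 to 40.2 CPM in shPCBP1. The clones were made by excising a short stretch of coding sequence, which a value for the whole gene does not show, so these levels do not check the KO. Lifr was also at 10.5 to 19.2 CPM in FAM3C KO, a range that holds LIFR KO clone 3. The depth implied by the lowest values was 16031859 to 46901675 reads per dataset 1 library. The depth of dataset 2, whose lowest listed value was 0.0001 CPM in each library, was not derived. In LIFR KO clones 2 and 3 and in the double KO, genes rich in GC were low, with Spearman correlations between GC content and the difference from shPCBP1 of -0.758, -0.745 and -0.704 across 12581 genes, against -0.288 to 0.241 in the other libraries. Mitochondrial mRNA took 7.22%, 7.16% and 8.58% of those 3 libraries and 3.14% to 4.06% of the others. LIFR KO results are therefore also given with LIFR KO clone 1 alone and after a correction for GC content. A p with clone 1 alone takes its spread from the other groups and assumes that this single library varies as they do.

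Fn1 and Fbln2 were the members furthest apart between control and PCBP1-knockdown cells. Fn1 (ENSMUSG00000026193, chromosome 1 from 71585520 to 71653200 in GRCm38) had 10.8 and 10.5 CPM in the 2 controls and 117 and 119 CPM in the 2 shPCBP1 libraries, a 10.9-fold difference of group means on the log2(CPM + 0.1) scale. Fbln2 (ENSMUSG00000064080, chromosome 6 from 91212455 to 91272540), an elastic fibre and basement membrane fibulin, was at 40.8 and 40.6 CPM in controls and 423.0 and 423.2 CPM in shPCBP1, a 10.4-fold difference. For both genes the replicate libraries of a group lay close together and far from the other group.

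The matricellular members stood apart by less. Sparc (chromosome 11 from 55394500 to 55423183), a collagen-binding glycoprotein, was at 213 and 212 CPM in controls and 392 and 380 CPM in shPCBP1, which is 1.81-fold higher. Thbs1 (chromosome 2 from 118111876 to 118127133), which binds CD36 and CD47 and activates latent TGF-β, was at 66.1 and 64.0 CPM in controls and 111 and 110 CPM in shPCBP1, which is 1.70-fold higher. Vcan (chromosome 13 from 89655312 to 89742509) was at 1.03 and 0.754 CPM in controls and 1.22 and 1.31 CPM in shPCBP1. The groups did not overlap for Vcan either, but its ratio of 1.39 stood beside a 1.36-fold spread between the 2 controls.

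The remaining 3 members with values were near the limit of detection. Fbn1, the main microfibril component, was listed in both controls at the table's lowest value and at 0.108 and 0.0740 CPM in shPCBP1. Tnc was listed at that lowest value in both controls and at 0.0180 and 0.0371 CPM in shPCBP1. Postn was at the lowest value in all 4 libraries. None of these 3 reached the mean of 0.5 CPM that a gene needed to enter a fit, so no fold is given for them. Of the 5 that did, 4 were at least 1.5-fold higher in shPCBP1 (Fn1, Fbln2, Sparc and Thbs1), where 16.0% of 11384 genes were. Fn1 and Fbln2 were chosen because they were higher after knockdown, so this count describes the members and is no test against that share.

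**Figure D1:**
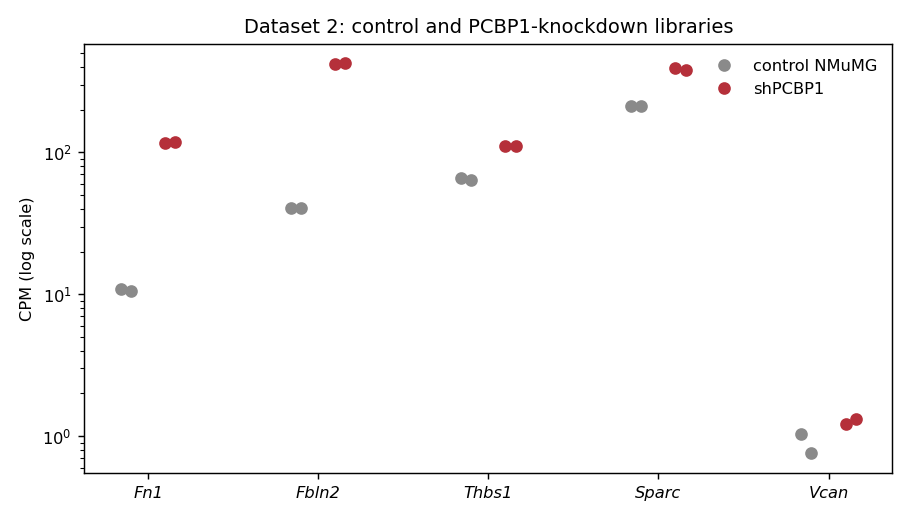
CPM (log axis) of the 5 members above 0.5 CPM on average in dataset 2, with 1 point per library, 2 NMuMG control libraries in grey and 2 shPCBP1 libraries in red. Fn1 lies near 10.7 CPM in controls and 118 CPM in shPCBP1 and Fbln2 near 40.7 and 423 CPM, while Vcan stays near 1 CPM.

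Per kilobase of the longest annotated transcript, the order of the levels also differed between the groups. In the controls Sparc was at 92.5 CPM per kb, Thbs1 at 11.1, Fbln2 at 8.50, Fn1 at 1.28 and Vcan at 0.0717 CPM per kb. In shPCBP1 Sparc was at 168 CPM per kb, Fbln2 at 88.4, Thbs1 at 18.9, Fn1 at 14.2 and Vcan at 0.102 CPM per kb. Fbln2 thus stood above Thbs1 in shPCBP1 and below it in controls.

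Genes that work with these proteins were counted from lists, and a list gene counted as called in dataset 2 with an adjusted p under 0.07 and a fold of at least 1.5, which 16.0% of all genes passed as higher and 15.1% as lower. Of 9 tested genes of other fibulins, fibrillins and elastic fibres, 5 were higher and 3 lower, with a median log2 difference of 0.59 against 0.02 over all tested genes. Ltbp4, which binds latent TGF-β and assists elastin assembly, rose by 3.09 on the log2 scale (SE 0.126), and the lysyl oxidase Loxl4 rose by 2.75 (SE 0.0477). Emilin1 (1.93), Ltbp1 (1.58) and Loxl3 (0.59) rose as well. The hemicentin Hmcn1 (-2.08), Ltbp3 (-0.77) and the fibulin Efemp2 (-0.61) fell.

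Of 7 other matricellular genes tested, 4 rose and none fell, with a median of 0.66. Smoc1, a Sparc relative, rose from a mean of 0.136 to 19.5 CPM, Wisp1 from 8.0 to 150 CPM, the tenascin Tnxb from 4.45 to 33.3 CPM and Ctgf from 345 to 546 CPM. Spp1, the osteopontin gene, was 0.49 higher on the log2 scale, under the 1.5-fold limit.

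Among 11 receptors and surface partners, 3 were called as higher and none as lower, with a median of 0.41. Itga5, the α subunit of the main fibronectin receptor, rose from 2.50 to 25.8 CPM, a log2 difference of 3.32 (SE 0.0824). Its partner Itgb1 was at 172 and 228 CPM, a difference of 0.41 that stayed under the 1.5-fold limit. Itgb6 and the hyaluronan receptor Cd44 rose by 0.84 and 0.83. Under the limit, Itgb3 (0.50) and Itgb5 (0.43) were higher as well. Cd47 (-0.43), Sdc2 (-0.43), Sdc4 (-0.35), Sdc1 (-0.21) and Itgav (-0.08) were lower, also under the limit. Of 13 genes for proteins that bind or help assemble fibronectin, 6 were called as higher and none as lower, with a median of 0.47. The 6 were the collagens Col5a1 (a mean of 0.0178 to 11.1 CPM) and Col6a1 (5.18 to 30.3 CPM) and the adhesion proteins Tns1, Lims1, Parva and Tns3, which rose by 0.68 to 1.39. Under the limit, Tns2 (0.47), Anxa2 (0.15), Fblim1 (0.12) and Ilk (0.01) were higher, and Bmp1 (-0.49), Fermt2 (-0.34) and Tgm2 (-0.12) lower. Of 6 versican relatives, hyaluronan partners and versican-cleaving proteases, Adamts4 (3.21) and Hapln4 (0.80) rose, and Has1 (-1.37) and Adamts15 (-1.09) fell, for a median of 0.15. In controls, Emilin1 (a mean of 0.165 CPM), Smoc1 (0.136), Col5a1 (0.0178) and Adamts4 (0.227) lay below the mean that a gene needed to enter a fit. They entered it through their shPCBP1 values and so could only be called higher. The same filter applied to all genes, and its part in the list counts and medians was not tested.

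The epithelial markers were in part lower in the same libraries. Of 7 tested, Krt7 fell by 3.49, Ocln by 1.20 and Cdh1, the E-cadherin gene, by 0.65 on the log2 scale, while the log2 differences of Krt8 and Krt18 were -0.07 and 0.08. The summed fibroblast markers were at 0.638 and 0.830 CPM in controls and at 0.896 and 0.758 CPM in shPCBP1, and the part of any other cell type in the member values was not tested.

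In dataset 1, where PCBP1 was knocked down in every line, 5 members had values and all 5 passed the filter with 12621 genes in all. Per kilobase, Sparc was the highest in shPCBP1 at 190 ± 10.4 CPM per kb (SD, n = 4), followed by Fbln2 at 72.4 ± 5.18 CPM per kb. Fn1 at 34.2 ± 7.17 CPM per kb and Thbs1 at 23.9 ± 10.7 CPM per kb overlapped in range, and Vcan was at 0.333 ± 0.0602 CPM per kb. In FAM3C KO (n = 3) the order was Sparc (176 ± 34.7 CPM per kb), Fbln2 (90.9 ± 18.9), Thbs1 (61.5 ± 4.13), Fn1 (48.3 ± 6.36) and Vcan (0.458 ± 0.0570), and no neighbours overlapped. In LIFR KO (n = 3) Sparc was at 144 ± 19.9 CPM per kb, Thbs1 at 41.4 ± 21.5, Fbln2 at 39.9 ± 10.7, Fn1 at 26.3 ± 7.52 and Vcan at 0.499 ± 0.0349 CPM per kb, and the ranges of Thbs1, Fbln2 and Fn1 overlapped. These orders were the same over the merged exons of each gene.

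**Figure D2:**
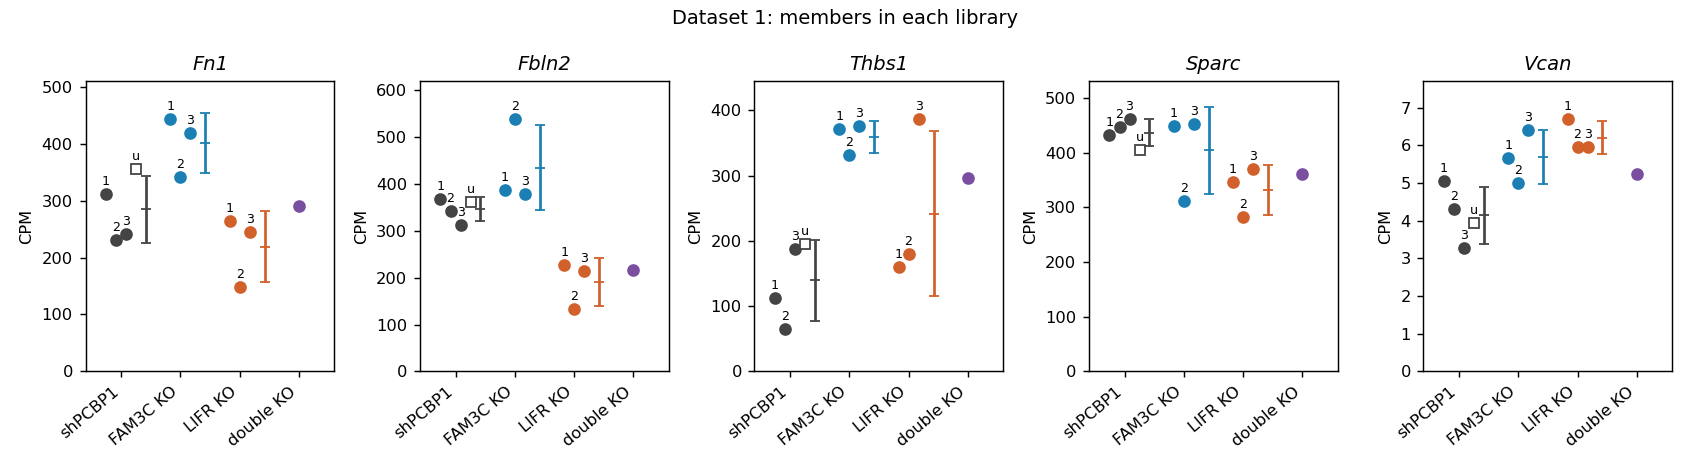
CPM of the 5 members in each library of dataset 1 (linear axes from 0, 1 panel per gene). Numbers are clone numbers, the open square marked u is the unaltered shPCBP1 line, and bars beside the points are the mean ± SD. Fbln2 lies between 132 and 227 CPM in LIFR KO, below all 4 shPCBP1 lines, and Thbs1 lies at 332 CPM or more in all 3 FAM3C KO clones and in LIFR KO clone 3.

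Thbs1 showed the widest gap between FAM3C KO and shPCBP1. It was at 371, 332 and 375 CPM in FAM3C KO clones 1 to 3 whereas CT clones 1 to 3 had 112, 64.9 and 187 CPM and the unaltered line 195 CPM. Each FAM3C KO clone was above each shPCBP1 line, while the shPCBP1 lines themselves spread over 3.00-fold. The log2 difference was 1.49 (SE 0.392, 95% CI 0.62 to 2.36), or 2.81-fold, with an adjusted p of 0.186 from limma, so it did not pass the threshold of 0.07. An exact permutation test on this gene alone gave p = 0.0286 (two-sided, not adjusted), the smallest that 3 clones against 4 lines allow. So small a p needs groups that do not overlap, as 22.7% of all genes showed, and it adds little to that lack of overlap. Among 1315 genes within 1 percentage point of its GC content, 99.0%, 99.2% and 99.5% differed from shPCBP1 by less than Thbs1 did in the 3 clones or in the other direction. In the shPCBP1 lines, the share of these genes below Thbs1 was 9.28%, 0.684% and 98.5% in CT clones 1 to 3. It was 97.9% in the unaltered line, so Thbs1 also stood far from these genes among the shPCBP1 lines. The adjusted p was 0.0428 when the 2 groups were fitted alone and 0.0527 without LIFR KO clone 3. Those fits called 1048 and 359 of all genes, against 39 with all libraries. The adjusted p of Thbs1 was 0.0939 after GC correction, 0.412 to 0.465 without any 1 of the FAM3C KO clones and 0.157 to 0.447 without any 1 of the shPCBP1 lines.

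The same transcript split the LIFR KO clones. Clones 1 to 3 of LIFR KO had 160, 179 and 387 CPM, so that clones 1 and 2 lay within the range of shPCBP1 and clone 3 lay above every FAM3C KO clone. The log2 difference from shPCBP1 was 0.80 (SE 0.392, 95% CI -0.06 to 1.67, adjusted p = 0.163 from limma), and 0.32 with clone 1 alone (adjusted p = 0.871). Without clone 3 it was 0.41 (adjusted p = 0.498), and without CT clone 2, the shPCBP1 line with the lowest Thbs1, 0.48 (adjusted p = 0.332). The double KO stood at 297 CPM, above all shPCBP1 lines.

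Fbln2 was the only member called in LIFR KO. Clones 1 to 3 of LIFR KO had 227, 132 and 213 CPM, and the shPCBP1 lines (CT clones 1 to 3, then the unaltered line) had 369, 342, 314 and 362 CPM, with no overlap. It fell by 0.90 on the log2 scale (SE 0.191, 95% CI -1.32 to -0.47, adjusted p = 0.0414 from limma), and the exact permutation test gave p = 0.0286 (two-sided), again the smallest possible. That p needs groups that do not overlap, as 17.2% of all genes showed. The call was 1 of 5 members, while 6.47% of all genes tested were called, 5.55% as lower. Fbln2 is rich in GC (57.0%, at or above 86.3% of genes tested), and in clones 2 and 3, the libraries short of such genes, 1066 genes of like GC content had medians of -0.78 and -0.75 where Fbln2 was at -1.38 and -0.70. In clone 1 those genes had a median of 0.01 and Fbln2 was at -0.61, lower than all but 7.88% of them. After GC correction the difference was -0.36 (adjusted p = 0.331), and with clone 1 alone it was -0.61 (adjusted p = 0.184). Without clone 2 the adjusted p was 0.125, without any 1 of the shPCBP1 lines it was 0.0923 to 0.126, and without FAM3C KO clone 1 or 3, which enter the same fit, it was 0.0729 and 0.0720. In clones 2 and 3 the fall of Fbln2 is confounded with the GC shift. Clone 1 did not carry the shift and was also below all 4 shPCBP1 lines, but it is 1 library. On GC-corrected values clones 1 to 3 were at 212, 205 and 316 CPM, beside 278 to 340 CPM in shPCBP1. The part of the shift in the group difference was not tested.

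In FAM3C KO, Fbln2 was at 388, 539 and 378 CPM. Every clone was above every shPCBP1 line, but clones 1 and 3 only narrowly so, and the log2 difference of 0.31 (95% CI -0.11 to 0.74) had an adjusted p of 0.670 from limma. Without FAM3C KO clone 2 it was 0.15.

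Fn1 differed between the KO groups more than from shPCBP1. It was at 444, 342 and 418 CPM in FAM3C KO, at 264, 148 and 245 CPM in LIFR KO, and at 312, 230, 241 and 356 CPM in the shPCBP1 lines, in the same order. The shPCBP1 lines overlapped both KO groups, and the KO groups did not overlap each other. The log2 difference from shPCBP1 was 0.51 in FAM3C KO (95% CI 0.02 to 1.00, adjusted p = 0.456) and -0.40 in LIFR KO (95% CI -0.89 to 0.09, adjusted p = 0.206), both from limma. The LIFR KO difference was -0.08 with clone 1 alone, -0.02 after GC correction, -0.56 (adjusted p = 0.0685) without clone 1 and -0.14 (adjusted p = 0.675) without clone 2. The fit without clone 1 called 7234 of all genes, against 816 with all libraries.

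Sparc was at 449, 312 and 452 CPM in FAM3C KO, at 345, 282 and 370 CPM in LIFR KO, and at 432, 447, 461 and 405 CPM in the shPCBP1 lines. FAM3C KO clone 2 fell among the LIFR KO clones, and all LIFR KO clones were below all shPCBP1 lines. Such a lack of overlap was shown by 17.2% of all genes. The LIFR KO difference was -0.40 on the log2 scale (95% CI -0.73 to -0.07), with an adjusted p of 0.0995 from limma and an exact permutation p of 0.0286 (two-sided), and it was -0.07 after GC correction. Without clone 1 it was -0.43 (adjusted p = 0.0472), without clone 2 -0.29 (adjusted p = 0.361), and with clone 1 alone -0.34 (adjusted p = 0.536). The fit without clone 1 called 7234 of all genes, against 816 with all libraries. In FAM3C KO the difference was -0.13 (95% CI -0.46 to 0.20, adjusted p = 0.884), and it turned to 0.05 without FAM3C KO clone 2.

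Vcan, poor in GC (43.7%), was low in every line. It was at 5.67, 5.0 and 6.42 CPM in FAM3C KO, at 6.71, 5.95 and 5.96 CPM in LIFR KO, and at 5.05, 4.32, 3.26 and 3.93 CPM in the shPCBP1 lines. LIFR KO did not overlap shPCBP1, with a log2 difference of 0.59 (95% CI 0.20 to 0.97, adjusted p = 0.0772 from limma), which missed the threshold. The value was 0.70 in clone 1 alone (adjusted p = 0.265), 0.47 after GC correction (adjusted p = 0.227), and 0.53 (adjusted p = 0.0361) without clone 1. The fit without clone 1 called 7234 of all genes, against 816 with all libraries, and the SE of Vcan was larger there (0.185 against 0.174). Vcan was the 1 member whose LIFR KO and shPCBP1 libraries did not overlap after GC correction. The gap was narrow, from 5.10 CPM in CT clone 1 to 5.16 CPM in LIFR KO clone 3. The share of all genes without overlap on those values was not derived. In FAM3C KO the log2 difference was 0.46 (95% CI 0.07 to 0.85, adjusted p = 0.376).

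By count, 0 of the 5 members passed the threshold in FAM3C KO against shPCBP1 by limma, where 0.309% of all genes passed, while 3 of the 5 (Thbs1, Fn1 and Vcan) and 10.2% of all genes had an unadjusted p under 0.05. The 2 members whose FAM3C KO and shPCBP1 libraries did not overlap (Thbs1 and Fbln2) compare with 22.7% of all genes, and the 3 in LIFR KO (Fbln2, Sparc and Vcan) with 17.2%. The 2 comparisons share the 4 shPCBP1 lines. Over all tested genes the median log2 difference was -0.01 in FAM3C KO and -0.16 in LIFR KO.

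FAM3C KO and LIFR KO were also compared directly, and 2 of 5 members, Fbln2 and Fn1, were higher in FAM3C KO, where 8.28% of all genes were called, 6.83% as higher in FAM3C KO. Fbln2 was at 435 ± 90.3 CPM in FAM3C KO and 191 ± 51.2 CPM in LIFR KO (SD, n = 3 each), a log2 difference of 1.21 (SE 0.205, 95% CI 0.75 to 1.66, adjusted p = 0.0323 from limma). Fn1 was at 401 ± 52.9 CPM and 219 ± 62.5 CPM, a log2 difference of 0.91 (SE 0.235, 95% CI 0.39 to 1.43, adjusted p = 0.0535 from limma). The exact permutation test gave p = 0.1 (two-sided) for both, the smallest that 3 clones against 3 can give. These were also the 2 members without overlap, as were 22.8% of all genes. With LIFR KO represented by clone 1 alone, a setting chosen after seeing the data, Fbln2 had a difference of 0.92 (adjusted p = 0.0289) and Fn1 one of 0.60 (adjusted p = 0.189), with no spread of their own in the LIFR KO arm. After GC correction neither passed, with 0.70 for Fbln2 (adjusted p = 0.107) and 0.57 for Fn1 (adjusted p = 0.148). Leaving out any 1 of the FAM3C KO clones put the adjusted p at 0.0767 to 0.120 for Fbln2 and 0.0879 to 0.179 for Fn1. For Fn1 it was 0.175 without LIFR KO clone 2 and 0.0733 to 0.0808 without any 1 of the shPCBP1 lines. The differences of Thbs1 (0.69, 95% CI -0.24 to 1.61), Sparc (0.27, 95% CI -0.08 to 0.62) and Vcan (-0.13, 95% CI -0.54 to 0.29) did not pass the threshold.

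**Figure D3:**
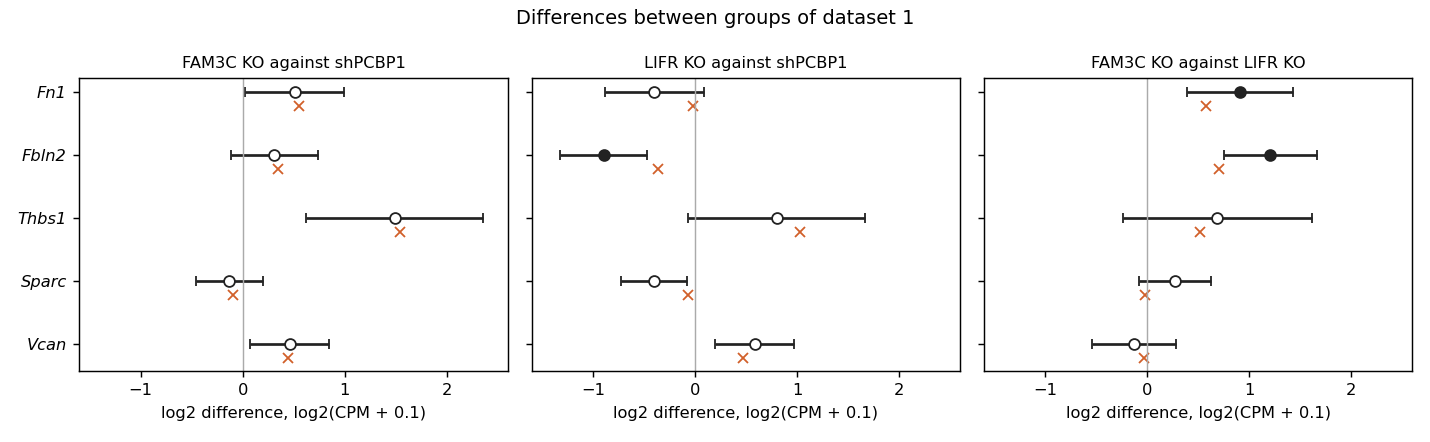
Log2 differences on the log2(CPM + 0.1) scale for the 5 members in the 3 comparisons of dataset 1, first group minus second. Circles with 95% CI bars are the limma estimates, filled where the adjusted p is under 0.07 (Fbln2 in LIFR KO, Fbln2 and Fn1 between the KO groups), and crosses are the estimates after GC correction, which leave Fbln2 in LIFR KO at -0.36.

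Set beside genes of like GC content, the members did not all follow the shift of LIFR KO clones 2 and 3. Fn1 (53.5% GC) was at -0.92 and -0.19 in those clones where 1337 such genes had medians of -0.53 and -0.52, so it stood below them in clone 2 and above them in clone 3. Sparc (52.5% GC) was at -0.63 and -0.24 beside medians of -0.46 and -0.44. Thbs1 (49.9% GC) was at 0.49 and 1.60 beside -0.26 and -0.23, the opposite sign. For Vcan, whose neighbours in GC content were raised (0.25 and 0.26), the values were 0.53 in both clones.

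**Figure D4:**
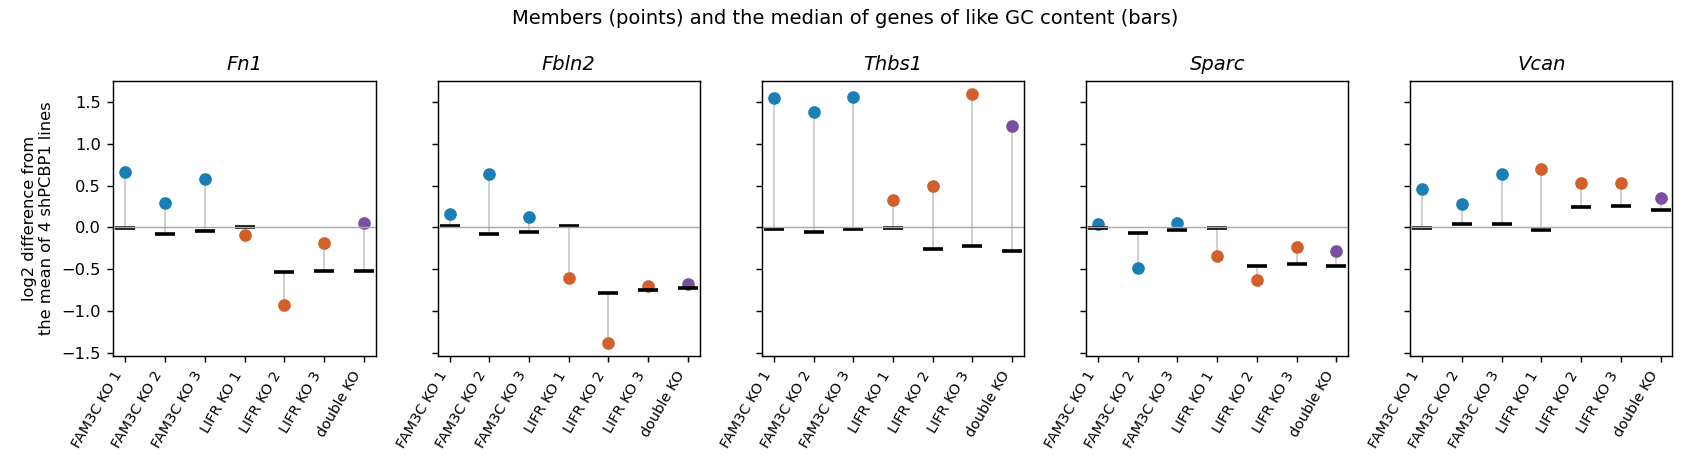
Log2 difference of each member from the mean of the 4 shPCBP1 lines in each KO library (points) and the median for genes within 1 percentage point of its GC content (black bars). In LIFR KO clones 2 and 3 and the double KO the bars move to about -0.75 for Fbln2 and -0.52 for Fn1, and Thbs1 stands above its bar in every KO library.

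None of 51 genes tested in the 5 pathway lists was called by limma in FAM3C KO against shPCBP1, and 3 were higher and 4 lower at an unadjusted p under 0.05, as were 5.14% and 5.05% of all genes. After GC correction 8 were higher and 3 lower at that limit, beside 9.62% and 7.60% of all genes. In LIFR KO, 1 of 12 fibulin, fibrillin and elastic fibre genes fell (Ltbp4, by 1.11 on the log2 scale), as did 3 of 11 receptors, namely Itga5 (by 1.12), Itgb5 (by 0.95) and the syndecan Sdc1 (by 0.66), and 3 of 13 fibronectin-binding and assembly genes, namely Tns2 (by 1.20), Ilk (by 0.55) and Anxa2 (by 0.47). No gene of these lists rose by limma, with 0 of the 51 higher and 16 lower at an unadjusted p under 0.05, where 8.42% of all genes were higher and 27.3% lower. None of 7 other matricellular or 8 versican-related genes was called, although 1 and 2 of them were lower at that unadjusted limit. Itga5 had 22.7, 16.0 and 27.0 CPM in clones 1 to 3 of LIFR KO and 37.7 to 55.9 CPM in shPCBP1, so that clone 1 was low too. Among the 7 epithelial markers tested, Krt8 (-0.96, adjusted p = 0.0701 from limma) and Krt19 (-0.80, adjusted p = 0.0967) were below all shPCBP1 lines but missed the threshold. Cdh1 (-0.04), Ocln (-0.05), Esrp2 (-0.26) and Krt7 (0.39) overlapped shPCBP1. Only Krt18 was called, lower by 0.72 and also without overlap. After GC correction none of these calls remained, with adjusted p from 0.128 for Tns2 to 0.559 for Ltbp4, where 0.309% of all genes were called, and 3 of the 51 pathway genes were higher and 6 lower at an unadjusted p under 0.05 (11.6% and 6.32% of all genes).

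Between FAM3C KO and LIFR KO, Ltbp4 had the largest difference of the list genes called, at 46.1, 36.6 and 51.6 CPM in FAM3C KO and 12.2, 5.49 and 14.4 CPM in LIFR KO. The shPCBP1 lines lay between them, at 20.4 to 23.6 CPM. Its log2 difference was 2.15 (SE 0.296, adjusted p = 0.0240 from limma) and 1.41 after GC correction (adjusted p = 0.0787). Efemp2 (0.51), Itga5 (1.27), Itgb5 (0.99), Sdc1 (0.75), Adamts4 (1.13), Hapln4 (1.10), Tns2 (1.04) and Bmp1 (0.83), which cleaves procollagens, were also higher in FAM3C KO, and none of the 51 pathway genes was called as lower by limma, in a comparison with 8.28% of all genes called. At an unadjusted p under 0.05, 14 were higher and 1 lower, beside 21.5% and 7.73% of all genes. None passed after GC correction, where 8 were higher and 6 lower at that limit (9.0% and 12.6% of all genes). The epithelial keratin Krt18 was higher in FAM3C KO as well, by 0.86 (adjusted p = 0.0466 from limma), and 0.39 after GC correction (adjusted p = 0.255). Krt8 was at 680 ± 174 CPM in FAM3C KO and 369 ± 133 CPM in LIFR KO (SD, n = 3 each), without overlap, and missed the threshold (adjusted p = 0.0820). The part of this marker difference in the member values was not tested.

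The genes whose pattern over the 11 libraries of dataset 1 was most like that of Fn1 were S1pr2, Nfkbia and Ctxn1, with root mean square differences of 0.14, 0.15 and 0.15 between centred log2 values among 10109 genes of at least 5 CPM. For Fbln2 they were Tbc1d22a, Fchsd1 and Tubb6, at 0.14, 0.16 and 0.17. Fn1 itself varied by 0.43 and Fbln2 by 0.54 on this scale, and all of these values share the libraries with the GC shift.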

How the data were processed

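RNA-Seq values of 15 NMuMG libraries were analysed. The authors made the libraries after rRNA depletion, sequenced paired 150 bp reads, aligned them to GRCm38 (mm10) with Bowtie2 in Partek Flow and deposited CPM per gene and library, without pooling. In dataset 1, between 78.5% and 83.4% of values were whole multiples of 1 read (within 0.1, under 1000 reads), too few to recover counts. Values were fitted here with limma 3.58.1 (R 4.3.3, mean-variance trend) on log2(CPM + 0.1), a scale that understates changes of low genes, for genes that averaged 0.5 CPM or more over the fitted libraries. Dataset 1 was fitted with its 3 replicated groups together, without the double KO. Benjamini-Hochberg adjusted p under 0.07, the study's limit, was the threshold. Members and lists were chosen with earlier results of these data known. Fn1 and Fbln2 were the anchors for naming the 5 genes with the most similar pattern, of which 3 each are given, and all members and all called list genes could be named.

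The 2 tables were normalized separately, so no level was tested across them. Nothing says that the dataset 2 replicates came from separate cultures, so their p-values measure only the spread between these samples. Annotation, GC content (13870 and 14795 genes matched) and transcript lengths came from GENCODE M21, and figures from matplotlib 3.10.9. The GC correction subtracted a loess curve (span 0.3) of each library's deviation on GC content. Alternatives chosen after seeing the data were LIFR KO clone 1 alone against FAM3C KO and overlap on GC-corrected values. The fits were tested on simulated data.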

Additional observations from a re-analysis of the deposited data

Results flagged for a closer look

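Fn1 and Fbln2 differed between the FAM3C KO and LIFR KO groups by the test of that difference itself, with log2 differences of 0.91 and 1.21 (adjusted p = 0.0535 and 0.0323 from limma), and both were higher in each of 3 FAM3C KO clones than in each of 3 LIFR KO clones, a lack of overlap that 22.8% of all genes showed. Neither passed after GC correction (adjusted p = 0.148 and 0.107) or without any 1 of the FAM3C KO clones. Thbs1 and Vcan were outside the shPCBP1 range upward in the double KO, a library that entered no fit: Thbs1 was at 296.7 CPM against 64.9 to 195 CPM, and Vcan was at 5.246 CPM against 3.26 to 5.05 CPM. In the same library Fn1 (291 CPM) lay within the shPCBP1 range, between the LIFR KO and FAM3C KO clones, and Fbln2 (217 CPM) and Sparc (360 CPM) lay below it. The double KO carried the GC shift, and genes of like GC content had median log2 differences from shPCBP1 there of 0.21 for Vcan (itself at 0.35), -0.28 for Thbs1 (1.22), -0.52 for Fn1 (0.06), -0.73 for Fbln2 (-0.68) and -0.46 for Sparc (-0.28). Of these 5, Thbs1 stood furthest from its genes of like GC content, and the places of Vcan, Fbln2 and Sparc outside the shPCBP1 range cannot be told apart from the shift.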

How the results depend on the processing

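The LIFR KO count of 1 called member and the count of 2 between FAM3C KO and LIFR KO were not stable. They became 2 and 1 with median-ratio rescaling, 0 and 0 with the 2 groups fitted alone, 0 and 0 with GC correction, with and without the replicate block, and 0 and 1 with LIFR KO clone 1 alone. The LIFR KO count was 2 with quantile normalization, and the count between KO groups was 1 at an adjusted p under 0.05. The FAM3C KO count of 0 became 1 (Thbs1) with the 2 groups fitted alone, where 1048 of all genes were called. Leaving out 1 library at a time gave counts of 0 to 4 in LIFR KO, 0 to 2 between KO groups and 0 to 1 in FAM3C KO. The LIFR KO count was 4 without LIFR KO clone 1, which leaves clones 2 and 3, both with the GC shift. That fit called 7234 of all genes, against 816 with all libraries, so the 4 are no result about the members. The LIFR KO count was 0 without LIFR KO clone 2, without FAM3C KO clone 1 or 3, or without any 1 of the shPCBP1 lines. Between KO groups it was 0 without any 1 of the FAM3C KO clones, and 1 without LIFR KO clone 2 or without any 1 of the shPCBP1 lines. The FAM3C KO count was 1 without LIFR KO clone 3, where 359 of all genes were called.

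The Fbln2 call in LIFR KO was lost in 12 of 22 alternatives (log2 difference -1.04 to -0.35, adjusted p 0.00190 to 0.523), the Fn1 call between KO groups in 15 of 22 (0.57 to 1.07, 0.00606 to 0.199) and the Fbln2 call between KO groups in 7 of 22 (0.70 to 1.35, 0.000789 to 0.203), with no change of sign. The lowest adjusted p of each of those calls came without LIFR KO clone 1. Those fits called 7234 of all genes in LIFR KO and 6673 between KO groups. Differences that were not called turned sign for Fn1 in LIFR KO (0.0903 with GC correction and block), for Sparc between KO groups (-0.0228 with GC correction, with and without the block) and for Sparc in FAM3C KO (0.0463 without FAM3C KO clone 2, and -0.220 to 0.0463 over all libraries left out in turn).

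Members without overlap in LIFR KO went from 3 to 1 on GC-corrected values. In FAM3C KO they were 2 to 4 when 1 library was left out, 4 without FAM3C KO clone 2, and 2 on GC-corrected values, where Fn1 took the place of Fbln2. As deposited, 17.2% of all genes in LIFR KO and 22.7% in FAM3C KO were without overlap. These shares were not derived for the other settings. In dataset 2, 2 members were at least 2-fold higher, Fn1 and Fbln2, around which the genes were chosen, and 7.56% of all genes were. Over all genes the calls ranged from 3 to 1048 in FAM3C KO (39 as reported), from 3 to 7234 in LIFR KO (816) and from 0 to 6673 between KO groups (1045); with GC correction they were 238, 39 and 70. The cause was not tested. Clone numbers gave no pairing, since same-numbered libraries of different groups did not all deviate together, so the block, which left 0 members called in LIFR KO and 0 between KO groups, is given only here. The depth of dataset 2 was not derived here, so what it limits there is not given.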
